A study of Danio rerio with 18 samples.

Results

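The genes described here are the zebrafish genes named after the DEAD and DEAH box helicases. They were taken as all genes whose name in the files starts with ddx or dhx and a number, without ddx4, and with at least 180 reads summed over the 18 libraries. The choice by name leaves out DEAD box genes with other names, such as those of eIF4A, and takes in ddx11, a DNA helicase. This gave 45 of the 32520 genes in the files, 31 named ddx and 14 named dhx. Of the 48 matching names, dhx32b with 48 reads and dhx58 with 2 lay under the minimum. The lowest members inside it were dhx57 with 552 reads and ddx43 with 575. All 45 members also passed the filter on low counts that preceded the tests.

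DEAD and DEAH box proteins use ATP to pull RNA strands apart or to strip proteins from RNA, and they are named after a run of amino acids in their ATP-binding core. DEAD box proteins tend to open short duplexes locally, whereas many DEAH box proteins travel along a strand, and members of both families drive steps of splicing, ribosome assembly, mRNA export, translation and mRNA decay. In the early fish embryo these steps first act on mRNAs that the mother loaded into the egg, until the embryo's own genome is transcribed.

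The libraries hold RNA of whole embryos collected 4 h after fertilisation. RfxCas13d is an RNA-cutting CRISPR enzyme that is led to its target by a guide RNA (gRNA), and the question was whether models made from other systems predict which mRNAs it depletes in the living embryo. Embryos received RfxCas13d with 1 of 8 cocktails, each holding 25 of 200 gRNAs, and are compared with embryos labelled RfxCas13d control. Each of the 9 groups had 2 libraries. An amount of 10 pg per embryo is given, but whether it applies to each gRNA or to a cocktail, what the controls received besides RfxCas13d, the strain, and which genes the gRNAs match are not stated in the sources used here. No member is therefore named below as an intended target. Nothing in the labels says whether replicates came from separate clutches, so p-values measure the spread between these libraries, which may be technical. The label for cell line holds the time point and the label for cell type holds the treatment, so no cell type was available to check.

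Gene counts per library ran from 2544027 to 4864939. The cocktail libraries stood apart from the controls as a whole, with 29.7% ± 7.01 (SD, n = 16) of reads unmapped against 10.4% ± 0.539 (SD, n = 2). Replicates of Cocktails 1 and 3 differed more than those of the other groups, with a median SD per gene of 0.380 and 0.399 log2 units against 0.189 in Cocktail 6. Of 9 genes that mark the enveloping layer, the outer epithelium of the embryo, 7 were lower in the cocktails. This was 77.8%, beside 13.6% of all genes tested, and DESeq2 gave 5 lower. The summed level of the 9 genes was 3795 to 3955 CPM (reads scaled to the size of the library) in the controls. It was 3.77 to 1775 CPM in the cocktails, with anxa1c at 0 in at least 1 cocktail. krt4 was the largest of them in the controls at 1888 CPM, and its call was lost in most fits that left out 1 library. Of 5 genes of the yolk syncytial layer 4 were lower (80%, beside 13.6%), with sums of 971 to 996 CPM against 4.04 to 883. The remaining gene, mxtx2, was not called, with a log2 change of 0.50 ± 1.00 (SE). It had the highest mean of the 5 on both sides, 236 CPM in the controls and 349 CPM in the cocktails. All 5 germ plasm genes were higher, beside 15.1% of all genes tested, with sums of 296 to 318 CPM against 898 to 1716. Without either control, 3 of the germ plasm genes were called higher. These lists moved between the same libraries as the results against the control below, and their part in those results was not tested. In RNA from whole embryos, fewer cells of a type and less RNA per cell cannot be told apart.

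In the control embryos 3 members made up most of the members' summed level. Levels are compared between genes as TPM, a transcript abundance that accounts for gene length. ddx5, a coregulator of transcription and splicing also called p68, was at 3170 TPM ± 39.7 (SD, n = 2). ddx39ab, a relative of the human export helicase UAP56, was at 2099 ± 60.3 TPM, and its paralog ddx39aa at 1035 ± 42.3 TPM. These 3 genes held 68.1% and 67.7% of the summed TPM of all members in the controls. They were followed by ddx19, which releases mRNA at the nuclear pore, at 548 ± 32.9 TPM, ddx3xb, a translation factor, at 290 ± 11.6 TPM, and ddx21, a nucleolar helicase, at 271 ± 10.3 TPM. The gaps between neighbours among the first 5 were larger than their SDs, whereas ddx3xb and ddx21 differed by less than the sum of theirs. At the low end stood ddx1 at 4.07 ± 0.516 TPM, dhx36 at 2.33 ± 0.933 TPM and dhx57 at 1.88 ± 0.544 TPM, of which dhx36 and dhx57 lay within their spread of each other.

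The summed level of all members was 9105 and 9458 TPM in the controls and lower in every cocktail library. The cocktail libraries ran from 4832 TPM in replicate 2 of Cocktail 3 to 7345 TPM in replicate 2 of Cocktail 6. The 3 leading genes took 51.3% of it in replicate 1 of Cocktail 1 and 56.8% to 66.4% in the other cocktail libraries, below both controls. The remaining members summed to 2902 and 3053 TPM in the controls and to 1722 to 2713 TPM in the cocktails. In raw reads the members made up 1.14% and 1.19% of the gene counts in the controls and 0.632% to 0.922% in the cocktails.

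**Figure D1:**
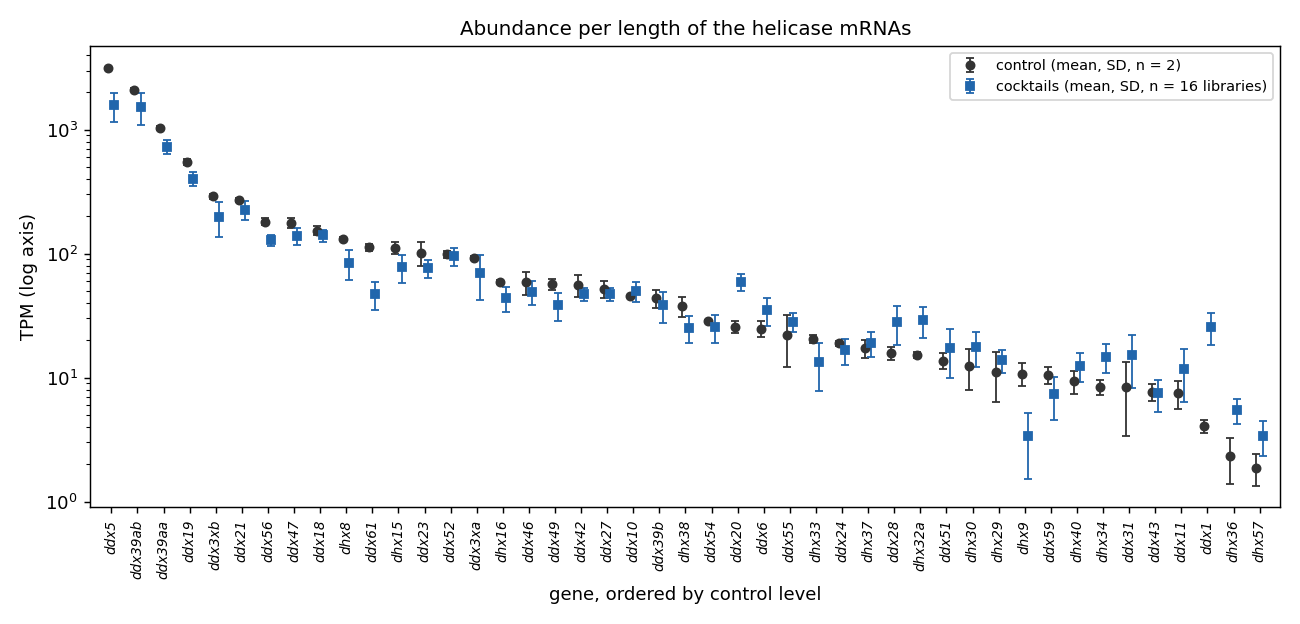
Level of each of the 45 members in TPM, on a log axis, as the mean of the 2 control libraries (black circles) and of the 16 cocktail libraries (blue squares) with bars of 1 SD. The control means of ddx5, ddx39ab and ddx39aa lie at the top, at 3170, 2099 and 1035 TPM, and ddx1 near the low end rises from 4.07 to 25.6 TPM.

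Taking the mean of all 8 cocktails against the control, 16 members were lower, 3 were higher and 26 did not pass the test. A gene was called here at an adjusted p under 0.05, by edgeR's quasi-likelihood test with Benjamini-Hochberg adjustment over the 14514 genes tested. The members called lower were 35.6% of the 45, beside 13.6% of all genes tested, and those called higher were 6.67%, beside 15.1%. On log2(TPM + 1) with limma, 8 members were lower and 2 higher, beside 1209 lower and 2451 higher of 19867 genes, so the split over all genes moves with the scale. The median log2 change was -0.35 for the members and 0.03 for all genes tested, or -0.21 and 0.15 on the TPM scale. Direction went with level: members at ranks 1 to 24 in control TPM all lay below zero, and those ranked lower went both ways. The higher calls were at ranks 25, 43 and 44, and the lower calls past rank 24 were those of dhx33 and dhx9. Whether genes of like level outside the family moved the same way was not tested. The shares called are therefore not read as traits of the family or its roles. All 16 cocktail libraries lay below both controls in 14 members, which is true of 12.3% of all genes, and above both in 3 members, which is true of 11.9%. These counts rest on 2 control libraries: 11 members (24.4%) were lower without control replicate 1 and 7 (15.6%) without replicate 2, while lower calls over all genes dropped to 5.65% and 5.73%. With 1 cocktail library left out, the members' median log2 change ran from -0.40 (replicate 1 of Cocktail 3 left out) to -0.32 (replicate 1 of Cocktail 4). The median of all genes in these fits was 0.016 and 0.021.

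**Figure D2:**
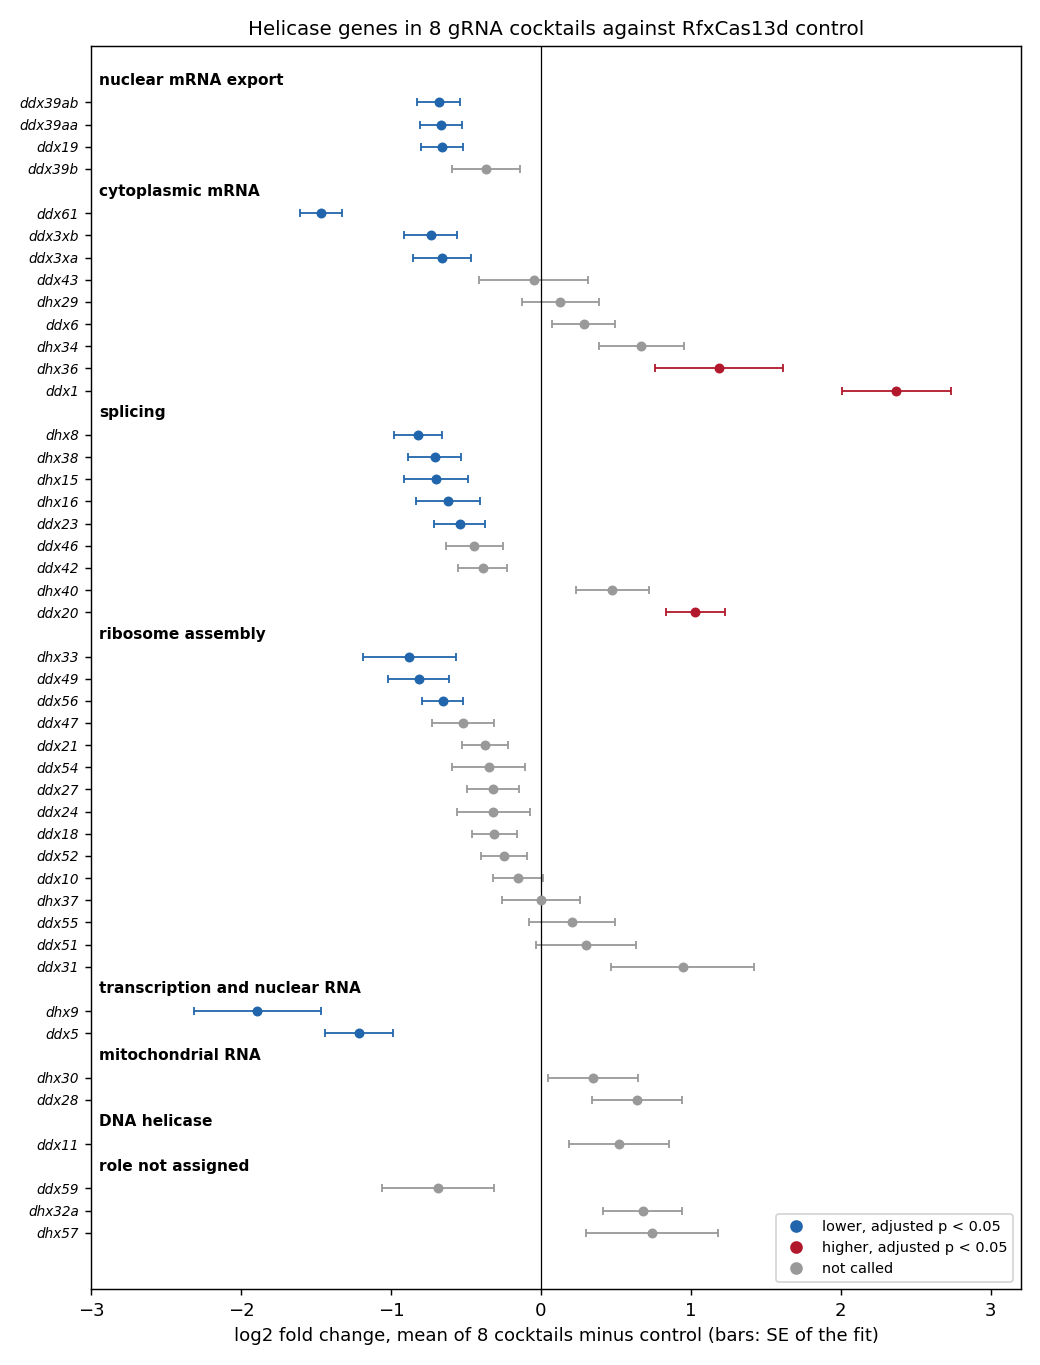
Log2 change of each of the 45 members between the mean of all cocktails and the control, with bars of 1 standard error, ordered by value within role. Of the members, 16 were called lower, from ddx23 at -0.54 to dhx9 at -1.89, and ddx20, dhx36 and ddx1 were called higher.

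The largest decreases were in dhx9 and ddx5, grouped under transcription and nuclear RNA, and in ddx61, a relative of ddx6. dhx9, also called RNA helicase A, unwinds structured nuclear RNA. It was at 25.9 and 32.7 CPM in the controls and at 1.96 to 14.6 CPM, median 8.32, in the cocktails. The cocktail and control libraries did not overlap, and dhx9 fell by 1.89 ± 0.42 (SE) on the log2 scale (adjusted p = 0.0019). That call was lost without control replicate 2 (adjusted p = 0.0624). ddx5 was at 4761 and 4726 CPM in the controls. In the cocktails it ran from 655 CPM in replicate 1 of Cocktail 1 to 2797 CPM in replicate 2 of Cocktail 7, with a median of 2202 CPM. No cocktail library came near the controls, and ddx5 fell by 1.22 ± 0.23 (adjusted p = 0.00109). Both members of the group for transcription and nuclear RNA, ddx5 and dhx9, were thus lower, beside 13.6% of all genes, and none was higher, beside 15.1%. The group holds 2 genes and was chosen with earlier results known, so its share is not read as a result about the role.

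Among the 9 members assigned to cytoplasmic mRNA, 3 were lower (33.3%, beside 13.6% of all genes) and 2 higher (22.2%, beside 15.1%). Their median log2 change was 0.13. The higher ones were dhx36 and ddx1, and ddx1 also belongs to the tRNA ligase complex. Limma on TPM gave 1 lower and 1 higher. The group holds ddx6, which represses stored mRNAs and promotes their decapping, and ddx61, a close relative of it in fish. ddx61 (ENSDARG00000018425) was at 264 and 285 CPM in the controls. In the cocktails it ran from 60.2 CPM in replicate 2 of Cocktail 3 to 146 CPM in replicate 1 of Cocktail 7, with a median of 102 CPM. The groups were far apart, and ddx61 fell by 1.47 ± 0.14 (adjusted p = 2.14e-07). ddx6 was at 82.9 and 105 CPM in the controls and at 79.6 to 174 CPM in the cocktails, with 12 of 16 libraries above both controls and 2 below. Its difference of 0.29 ± 0.21 did not pass the test (adjusted p = 0.333). Within each library, the ratio of ddx61 to ddx6 in TPM was 3.92 and 5.23 in the controls and 0.710 to 2.42, median 1.35, in the cocktails. The order of the pair was reversed only in replicate 1 of Cocktails 1, 3 and 6, at 0.710, 0.913 and 0.975, and in both libraries of no cocktail. ddx6 overlaps treh in a RefSeq annotation, so its reads may be shared.

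The ddx3x genes encode a helicase that helps ribosomes start on mRNAs with structured leaders. ddx3xb was at 598 and 619 CPM in the controls and at 193 to 511 CPM, median 387, in the cocktails. ddx3xb fell by 0.74 ± 0.18 (adjusted p = 0.00334) without overlap between the groups. ddx3xa was at 313 and 280 CPM in the controls and at 77.3 to 310 CPM, median 201, in the cocktails. Both Cocktail 6 libraries reached the range of the controls, and those of Cocktail 7 were the lowest at 77.3 and 79.6 CPM. In single cocktails the log2 change from the control ran from -1.92 in Cocktail 7 to 0.06, so the decrease was uneven. In the mean of the cocktails ddx3xa fell by 0.66 ± 0.19 (adjusted p = 0.0123). Both calls were lost when either control was left out (adjusted p 0.0506 to 0.184).

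ddx1 showed the largest increase of any member. It belongs to the tRNA ligase complex and to RNA transport granules in mammals. The controls held 5.74 and 6.91 CPM. The cocktails ran from 16.9 CPM in replicate 2 of Cocktail 5 to 49.8 CPM in replicate 1 of Cocktail 7, with a median of 33.7 CPM. Every cocktail library was above both controls, and the fitted increase was 2.37 ± 0.36 (adjusted p = 5.45e-05), or 5.18-fold. In TPM, ddx1 went from 4.07 ± 0.516 (SD, n = 2) to 25.6 ± 7.27 (SD, n = 16). dhx36, which opens G-quadruplexes, was at 3.22 and 6.01 CPM in the controls and at 6.81 to 14.4 CPM in the cocktails, with all 16 libraries above. Its increase of 1.19 ± 0.43 barely passed (adjusted p = 0.0410) and was lost without either control (adjusted p = 0.407 and 0.0790) and without any of 8 cocktail libraries (adjusted p 0.0510 to 0.0646). dhx36 overlaps other annotated genes. dhx29 and dhx34, which act in translation of structured leaders and in nonsense-mediated decay, and ddx43 did not pass the test. For dhx34 the difference was 0.67 ± 0.28 (adjusted p = 0.0824).

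Of the 4 nuclear export helicases, 3 were lower (75.0%, beside 13.6% of all genes) and none was higher, with a median of -0.67. DESeq2 and limma on TPM also gave 3 lower, and none was higher by either or at an unadjusted p under 0.05. ddx39ab (ENSDARG00000015111) was at 2057 and 2115 CPM in the controls and at 455 to 2081 CPM, median 1390, in the cocktails. Cocktail 7 held the lowest libraries at 455 and 551 CPM, and replicate 2 of Cocktail 1 reached the controls. In the mean of the cocktails ddx39ab fell by 0.68 ± 0.14 (adjusted p = 0.0012). Its log2 change in single cocktails ran from -2.05 in Cocktail 7 to -0.27. ddx39aa (ENSDARG00000006225) was at 1055 and 1099 CPM in the controls and at 501 to 883 CPM, median 712, in the cocktails, without overlap. It fell by 0.67 ± 0.14 (adjusted p = 0.00108). ddx19 was at 613 and 600 CPM in the controls and at 298 to 474 CPM in the cocktails. It too did not overlap and fell by 0.66 ± 0.14 (adjusted p = 0.00106). ddx39b (ENSDARG00000036069), another relative, was far lower in level, at 45.5 and 58.0 CPM in the controls. Its cocktail values of 26.7 to 62.4 CPM overlapped them, and its difference of -0.37 ± 0.22 did not pass (adjusted p = 0.239).

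Of the 9 splicing members 5 were lower (55.6%, beside 13.6% of all genes) and 1 higher (11.1%, beside 15.1%), with a median of -0.54. dhx8, dhx38, dhx16 and dhx15 are the relatives of yeast Prp22, Prp16, Prp2 and Prp43, which drive successive rearrangements of the spliceosome and its disassembly. dhx8 was at 386 and 392 CPM in the controls and at 113 to 329 CPM, median 220, in the cocktails. It fell by 0.82 ± 0.16 (adjusted p = 0.00062) without overlap. dhx38 fell by 0.71 ± 0.18, dhx15 by 0.70 ± 0.21 and dhx16 by 0.62 ± 0.22, and ddx23, the relative of Prp28, by 0.54 ± 0.17. For dhx38 and ddx23 the call was lost without control replicate 2, and for dhx15 and dhx16 without either control (adjusted p 0.0957 to 0.460 over these fits), and for dhx16 also without replicate 1 of Cocktail 6 (adjusted p = 0.0525). Without overlap in dhx38, dhx15 and dhx16, 1 of 16 libraries of ddx23 reached the controls. ddx46 and ddx42, which act at the U2 snRNP, lay at -0.44 and -0.39 and did not pass. dhx40 lay above zero at 0.48 ± 0.24 and did not pass either (adjusted p = 0.152). With limma on TPM, 1 of these genes was lower. In a RefSeq annotation ddx23, dhx16 and ddx46 overlap other genes.

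ddx20, also called Gemin3, belongs to the SMN complex, which assembles the snRNP particles of the spliceosome. It was the one splicing member called higher. The controls were at 42.7 and 51.0 CPM and the cocktails at 74.3 to 114 CPM, with a median of 95.6 CPM. The 16 cocktail libraries lay close together, all above the controls, and the increase was 1.03 ± 0.19 (adjusted p = 0.000424), or 2.04-fold. ddx20 overlaps inka2 in a RefSeq annotation.

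The 15 members of ribosome assembly, the largest group, gave 3 lower and none higher, with a median of -0.32 and 11 below zero. The share of 20% lower stands near the 13.6% of all genes. None was higher by DESeq2, by limma on TPM or at an unadjusted p under 0.05, and 6 were lower at an unadjusted p under 0.05, 5 by DESeq2 and 1 by limma on TPM. ddx56 was at 221 and 233 CPM in the controls and at 117 to 182 CPM in the cocktails. Its cocktail and control libraries did not overlap, and it fell by 0.66 ± 0.14 (adjusted p = 0.00108). The ddx56 gene overlaps another gene in a RefSeq annotation. ddx49 was at 55.8 and 64.6 CPM in the controls and at 23.8 to 53.9 CPM in the cocktails. It fell by 0.82 ± 0.20 (adjusted p = 0.00446), a call lost without control replicate 2 (adjusted p = 0.121). dhx33 was at 45.5 and 43.5 CPM in the controls and at 9.29 to 39.3 CPM in the cocktails. Its decrease of 0.88 ± 0.31 (adjusted p = 0.0381) was lost without either control (adjusted p = 0.231 and 0.183) and without any of 4 cocktail libraries (adjusted p 0.0506 to 0.0588). dhx33 overlaps gusb in a RefSeq annotation. ddx21, the group's most abundant member, was at 277 and 283 CPM in the controls and at 169 to 264 CPM in the cocktails. It was below in all 16 libraries but did not pass (-0.37 ± 0.15, adjusted p = 0.0752). ddx18 lay at -0.31 ± 0.15 and ddx47 at -0.52 ± 0.21, both short of the threshold. At the other end of the group, ddx31 lay at 0.94 ± 0.48 and also did not pass (adjusted p = 0.148).

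Neither of the mitochondrial members was called, ddx28 at 0.64 ± 0.30 and dhx30 at 0.35 ± 0.30, nor was ddx11, a DNA helicase of chromosome cohesion, at 0.52 ± 0.33. Of these, ddx28 was higher at an unadjusted p under 0.05, and DESeq2 and limma called none. Among the 3 members without an assigned role, dhx32a at 0.68 ± 0.26 came closest (adjusted p = 0.0566), and ddx59 and dhx57 lay at -0.69 and 0.74. dhx32a was also the only one of them at an unadjusted p under 0.05, and DESeq2 and limma called none. In a RefSeq annotation ddx11, dhx30, dhx32a and dhx57 overlap other genes.

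**Figure D3:**
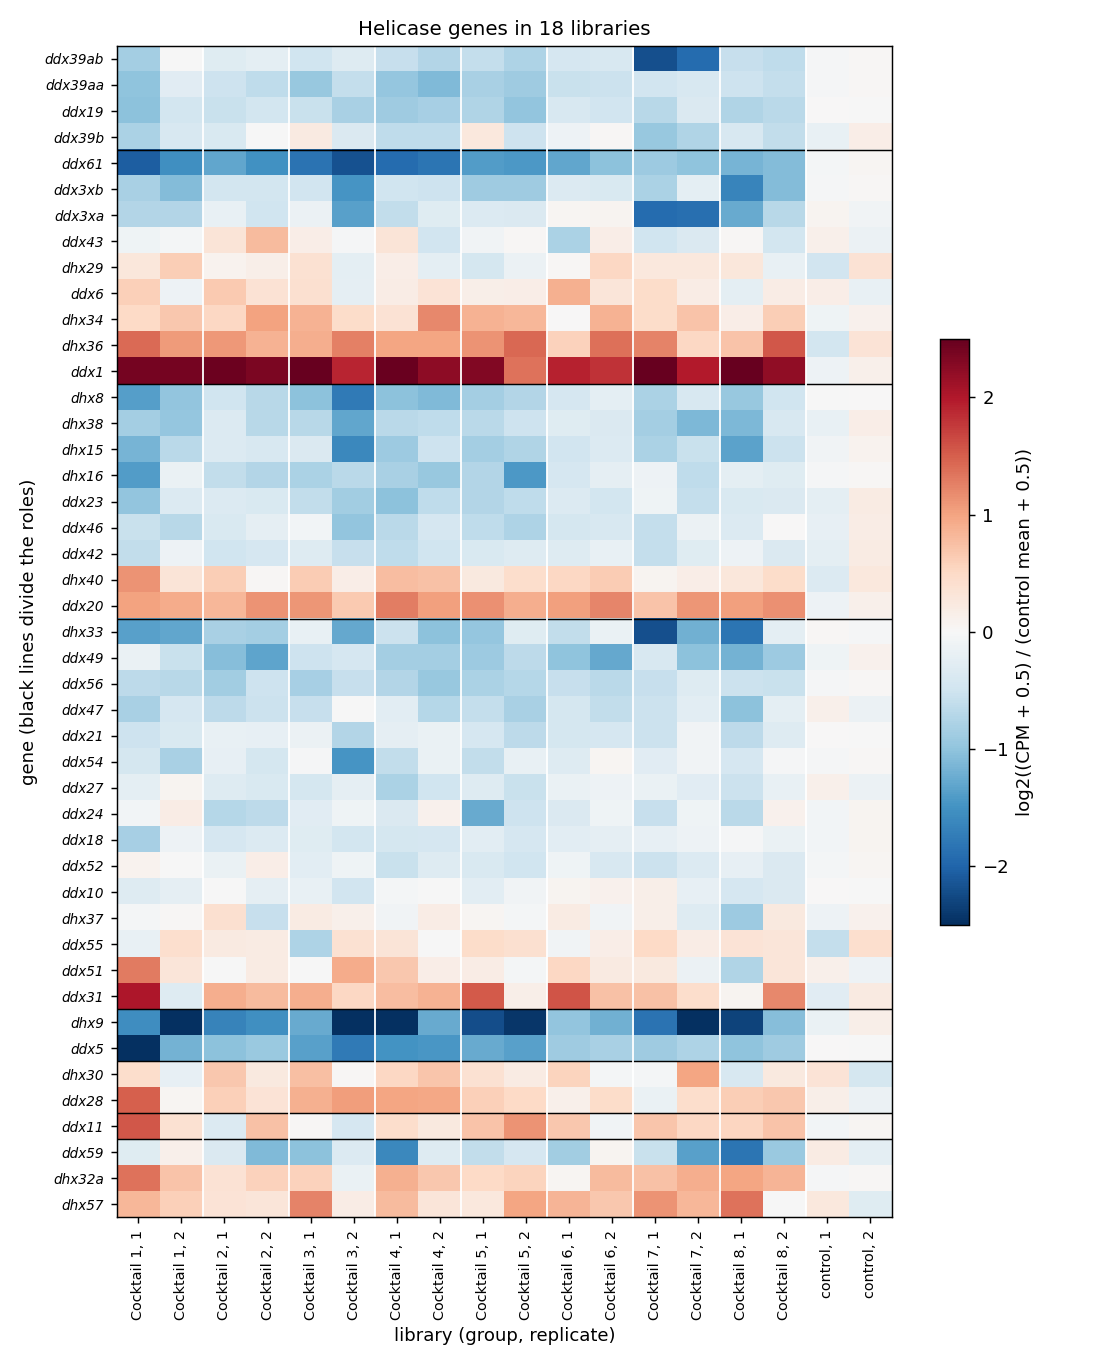
Log2 level of each member in each library (CPM + 0.5) relative to the mean of the controls, with members in rows by role and libraries in columns by group. Colours stop at 2.5 in each direction. The rows of ddx61, ddx5 and dhx9 are below the controls in all 16 cocktail libraries and those of ddx1, ddx20 and dhx36 above in all 16, while ddx39ab and ddx3xa are lowest in the Cocktail 7 columns.

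Genes that work beside the helicases were examined in the same comparison. Of 15 tested RNA helicases with other names, which include the eIF4A DEAD box proteins, 5 were lower (33.3%, beside 13.6% of all genes) and 1 was higher (6.67%, beside 15.1%), with a median of -0.38. eif4a1a, a translation initiation helicase, fell by 0.93 ± 0.16 from 1022 to 556 CPM. eif4a2, at a far lower level, fell by 2.12 ± 0.46 from 14.4 to 3.62 CPM, whereas eif4a1b lay at 0.09 ± 0.18 and did not pass. snrnp200, the Brr2 helicase that unwinds U4 from U6, fell by 1.57 ± 0.20, and upf1, of nonsense-mediated decay, by 0.75 ± 0.22. setx was the higher gene at 0.67 ± 0.19. Limma on TPM gave 3 lower and none higher, so setx was not called there. Without either control 3 genes were lower and none higher, and the calls of upf1 and setx were lost (adjusted p 0.0677 to 0.176).

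Of 11 partners of ddx39 helicases in the TREX export complex and beyond, 4 were lower (36.4%, beside 13.6%) and 1 higher (9.09%, beside 15.1%), with a median of -0.29, and limma on TPM gave 1 of each. thoc2, a scaffold of TREX, fell by 0.84 ± 0.16, and alyref, the adaptor that hands mRNA to the export receptor, by 0.52 ± 0.15. chtopb rose by 1.38 ± 0.19, while chtopa lay at -0.29 ± 0.14 and did not pass. The lower genes were 1 without control replicate 1 and 2 without replicate 2, and the call of alyref was lost in both fits (adjusted p = 0.115 and 0.131). Of 11 ddx6 partners 4 were lower (36.4%, beside 13.6%) and 3 higher (27.3%, beside 15.1%), with a median of -0.32, and limma on TPM gave 1 lower and 3 higher. The lower genes included cnot1, the scaffold of the deadenylase complex, which fell by 1.01 ± 0.22, and lsm14aa, which fell by 0.53 ± 0.15. Those that rose were the decapping activators dcp1b by 1.74 ± 0.34 and dcp1a by 1.15 ± 0.29, and lsm14b, a partner in mRNA storage, by 1.07 ± 0.14 from 225 to 481 CPM. The lower ddx6 partners were 1 without control replicate 1 and 0 without replicate 2, and the higher ones 2 in both fits. Calls of cnot1, lsm14aa and dcp1a were among those lost (adjusted p 0.0751 to 0.145).

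The last list held nucleolar partners of the ribosome assembly members. Of 26 tested, 16 were lower (61.5%, beside 13.6%) and none was higher, with a median of -0.47. None was higher at an unadjusted p under 0.05 or by DESeq2, and limma on TPM gave 7 lower and 1 higher. nop2, an rRNA methyltransferase, fell by 1.99 ± 0.24 and bms1, a GTPase of the small subunit, by 1.14 ± 0.15. The box C/D proteins nop58, nop56 and fbl fell by 0.71 ± 0.14, 0.69 ± 0.14 and 0.59 ± 0.15. The lower genes were 8 without control replicate 1 and 5 without replicate 2, where fbl was among those lost (adjusted p 0.0547 and 0.121). The adjusted p-values of the partner genes called in these 4 lists ran from 3.55e-06 to 0.0469. Among the nucleolar partners, bop1, utp6 and nhp2 lay near the threshold, at 0.0343, 0.0373 and 0.0469. Their calls were also lost in fits without single cocktail libraries.

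Each cocktail was next compared with the control by itself, where calls required both an adjusted p under 0.05 and a 2-fold difference. All 8 comparisons use the same 2 controls, so their results are given side by side. In Cocktail 1, 5 members were lower (ddx5, ddx61, dhx33, dhx8 and dhx9) beside 7.86% of all genes, and 2 were higher (ddx1 and dhx32a) beside 12.6%. Cocktail 2 gave 2 lower (ddx49 and ddx61) beside 3.0%, and ddx1 higher beside 6.17%. Cocktail 3 gave 4 lower (ddx5, ddx61, dhx8 and dhx9) beside 7.7%, and ddx1 higher beside 11.5%. In Cocktail 4, 5 were lower (ddx39aa, ddx5, ddx61, dhx8 and dhx9) beside 6.69%, and ddx1 and ddx20 were higher beside 11.4%. In Cocktail 5, 4 were lower (ddx5, ddx61, dhx16 and dhx9) beside 3.47%, and ddx1 and ddx20 were higher beside 9.38%. Cocktail 6 gave ddx49 and ddx61 lower beside 1.14%, and ddx1 and ddx20 higher beside 4.61%. In Cocktail 7, ddx39ab, ddx3xa and dhx33 were lower beside 1.67%, and ddx1 was higher beside 4.52%. Cocktail 8 gave ddx3xb, ddx49 and ddx61 lower beside 2.25%, and ddx1 and ddx20 higher beside 6.32%.

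Summed over the 8 comparisons, 28 of 360 tests of members were called lower (7.78%, beside 4.22% for all genes) and 13 higher (3.61%, beside 8.32%). Both counts moved when single libraries were left out, the controls among them. The shares over all genes in those fits are not given here, so these shifts are not read as a result about the members. ddx1 was higher in 8 of 8 cocktails, with log2 changes of 1.95 to 2.58. ddx61 was lower in 7 of 8, with changes of -2.01 to -0.96, where Cocktail 7 gave -0.96 (adjusted p = 0.00724) and missed the fold minimum. ddx5 and dhx9 were lower in 4 cocktails each, ddx20 was higher in 4, and ddx49 and dhx8 were lower in 3 each. The log2 changes of ddx20 ran from 0.90 to 1.16 over the 8 cocktails. In Cocktails 1, 2 and 3 ddx20 missed only the fold minimum (adjusted p = 0.00456, 0.00861 and 0.00855). It was not called in Cocktail 7 either, where it was at 76.9 and 102 CPM, above both controls at 42.7 and 51.0 CPM. Of the 41 calls, 20 held in all 18 fits that left out 1 library. ddx1 kept 6 of its 8 calls in all of them, losing that in Cocktail 5 without its replicate 1 (adjusted p = 0.0662) and that in Cocktail 6 without either control (adjusted p = 0.0994 and 0.0542). ddx61 kept 6 of 7, losing Cocktail 6 without its replicate 1 (adjusted p = 0.0617), and dhx8 kept 3 of 3. ddx5 and ddx20 kept 1 of 4 each, and none of the calls of dhx9, ddx49, dhx33, dhx16 and dhx32a held throughout (adjusted p 0.0505 to 0.313 in the fits that lost them).

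ddx5 in Cocktail 1 was uneven between replicates, at 655 and 2088 CPM. Its log2 change there of -1.79 ± 0.35 became -1.19 without replicate 1 and -2.86 without replicate 2. In Cocktail 8 ddx3xb was at 193 and 288 CPM and fell by 1.34 ± 0.26 (adjusted p = 0.00177), a call lost without its replicate 1 (adjusted p = 0.0562). ddx3xa in Cocktail 8 lay at -0.95 ± 0.27 (adjusted p = 0.0284), under the fold minimum.

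Cocktail 7 differed from the other cocktails in the family's export and translation members ddx39ab and ddx3xa. These genes were singled out with earlier results of the same comparison known, so the tests below restate a known pattern and do not add an independent one. ddx39ab was at 455 and 551 CPM in Cocktail 7. In the 14 other cocktail libraries it ran from 1152 CPM in replicate 1 of Cocktail 1 to 2081 CPM in replicate 2 of Cocktail 1, with a median of 1431 CPM. No library of another cocktail came near the Cocktail 7 values. Against the mean of the 7 others, ddx39ab fell by 1.56 ± 0.18 (adjusted p = 2.47e-05), or 2.96-fold. Against the control it fell by 2.05 ± 0.21 (adjusted p = 6.68e-06) and stood at rank 5 by p among the 14514 genes tested.

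ddx3xa (ENSDARG00000020573) was at 77.3 and 79.6 CPM in Cocktail 7. The 14 other cocktail libraries held 115 to 310 CPM, with a median of 220, the lowest being replicate 2 of Cocktail 3 at 115 CPM and replicate 1 of Cocktail 8 at 123 CPM. The Cocktail 7 libraries were below all of them and close to each other. Against the mean of the 7 others, ddx3xa fell by 1.44 ± 0.24 (adjusted p = 0.00242), or 2.70-fold, and against the control by 1.92 ± 0.28 (adjusted p = 0.000189). The first of these was lost without either library of Cocktail 7, at -1.42 (adjusted p = 0.105) and -1.46 (adjusted p = 0.116), and the second was kept.

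Among the nearest relatives, ddx39aa was at 774 and 817 CPM in Cocktail 7, within the 501 to 883 CPM of the 14 other libraries and above their median of 703 CPM. Its difference from the control of -0.44 ± 0.20 did not pass (adjusted p = 0.187). ddx39b was at 26.7 and 30.3 CPM, of which the first lay just under the lowest other library at 29.6 CPM. Its Cocktail 7 mean of 28.5 CPM was the lowest of the 9 groups, and the differences of -0.85 ± 0.32 from the control (adjusted p = 0.102) and -0.56 ± 0.25 from the 7 others (adjusted p = 0.371) did not pass. ddx3xb (ENSDARG00000005774) was at 352 and 511 CPM in Cocktail 7, of which the second exceeded every other cocktail library. Its difference from the control of -0.49 ± 0.25 did not pass either (adjusted p = 0.246).

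Ratios within a library set the relatives side by side without any scaling between libraries. The ratio of ddx39ab to ddx39aa in TPM was 2.05 and 2.01 in the controls, 1.91 to 2.75 in the 14 other cocktail libraries, and 0.607 and 0.696 in Cocktail 7. ddx39ab was thus the more abundant of the pair in every library but those of Cocktail 7. The ratio of ddx39ab to ddx39b was 20.8 and 21.2 in Cocktail 7 and 26.7 to 65.1 in the other cocktail libraries. For ddx3xa over ddx3xb it was 0.339 and 0.301 in the controls, 0.313 to 0.470 in the other cocktails and 0.151 and 0.107 in Cocktail 7. The controls lay within or near the range of the other 7 cocktails for both pairs, and Cocktail 7 lay below it. A ratio shows that the genes of a pair changed unequally, not that 1 of them stayed the same. Paralogs share stretches of sequence, and how the authors counted reads that fit both is not stated in the sources used here.

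**Figure D4:**
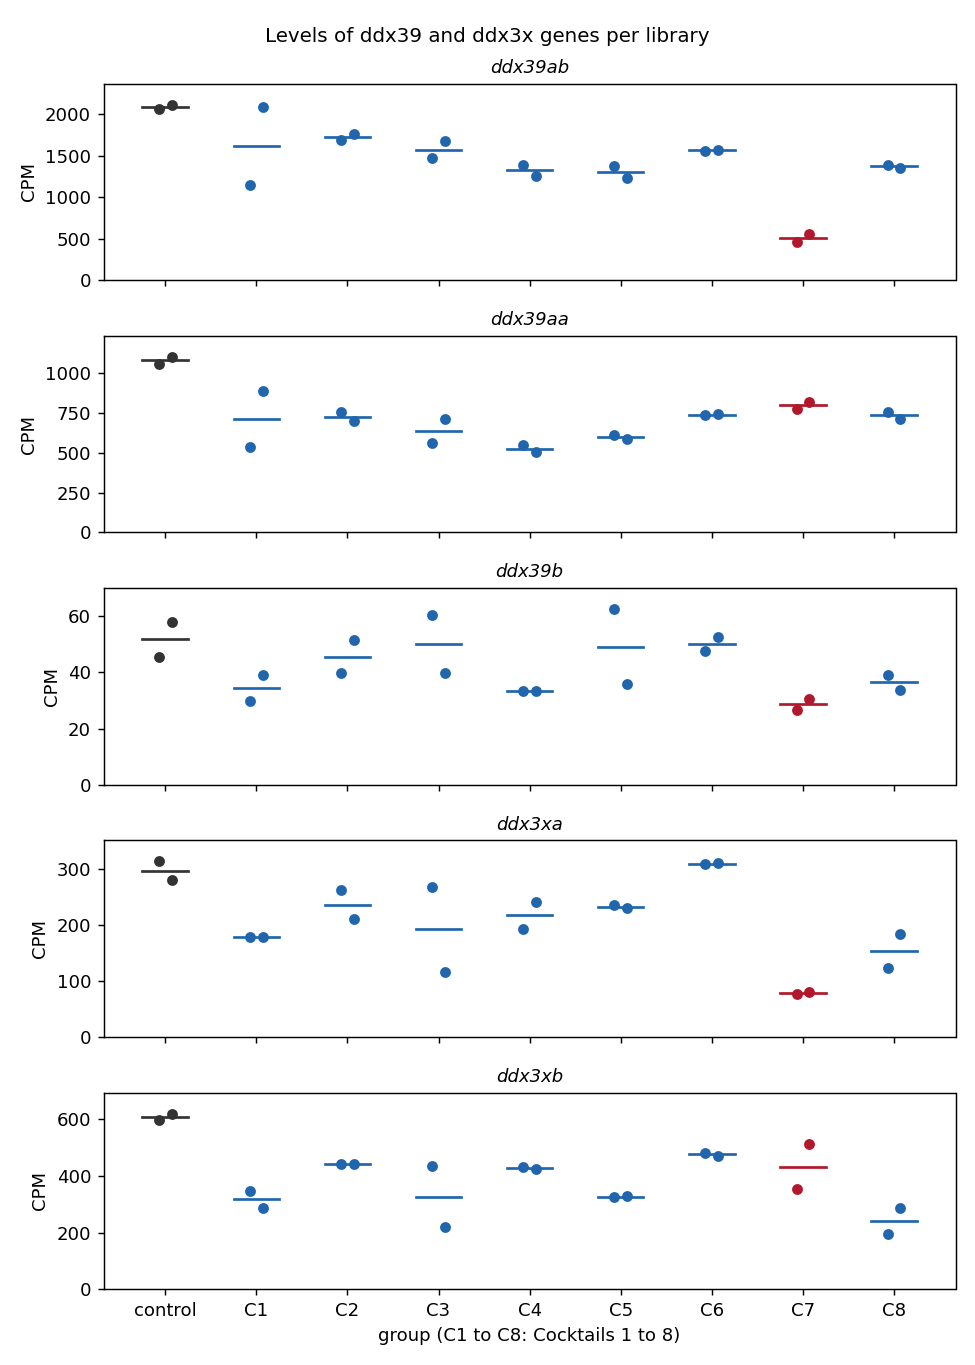
Levels of ddx39ab, ddx39aa, ddx39b, ddx3xa and ddx3xb in CPM in each library, by group, each point a library and each line the mean of a group. Cocktail 7 (red) is low for ddx39ab at 455 and 551 CPM and for ddx3xa at 77.3 and 79.6 CPM, and its ddx39b mean of 28.5 CPM is the lowest group mean, while its ddx39aa and ddx3xb points lie among or above those of the other cocktails.

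Comparing each cocktail with the mean of the 7 others at the same thresholds, Cocktail 7 was the one with members called, 2 lower beside 0.193% of all genes and none higher beside 0.358%. The 2 were ddx39ab and ddx3xa, singled out with this pattern known, so their share is not read as an excess. The other 7 cocktails gave no member in either direction, beside 0.121% of tests over all genes lower and 0.146% higher. With DESeq2 and no fold minimum 3 were lower and 2 higher over the 8 comparisons, with limma on TPM 2 and 0, and edgeR without adjustment gave 14 and 15 of 360 tests with p under 0.05. The shares over all genes at these settings are not given here, so these counts are not read as a result about the members. Without replicate 1 of Cocktail 3 the lower calls over all cocktails were 4, and without either library of Cocktail 7 they were 1.

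Judged by the libraries alone, Cocktail 7 lay below all 14 others in 2 members, ddx39ab and ddx3xa, beside 1.98% of all genes. For this pair too the outcome was known beforehand. Cocktail 7 lay above all 14 in ddx61, beside 1.71%. ddx61 was at 146 and 136 CPM there, its highest among the cocktails and still under the controls, and its difference from the 7 others of 0.58 ± 0.16 did not pass (adjusted p = 0.0920). Cocktail 6 lay above the rest in ddx3xa at 308 and 310 CPM, beside 1.65%, with a difference of 0.83 ± 0.19 that did not pass (adjusted p = 0.0680). Cocktail 2 lay above the rest in ddx43 at 12.2 and 16.9 CPM, beside 1.05%. Its replicate 1, with 40 reads, was level with replicate 1 of Cocktail 4, with 38 reads and also 12.2 CPM. In the other 5 cocktails no member was above all libraries of the others (0.936% of tests over all genes), and outside Cocktail 7 none was below (0.98%). Among single libraries, replicate 2 of Cocktail 3 was the lowest of the 16 cocktail libraries for 12 members and replicate 1 of Cocktail 8 for 7.

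**Figure D5:**
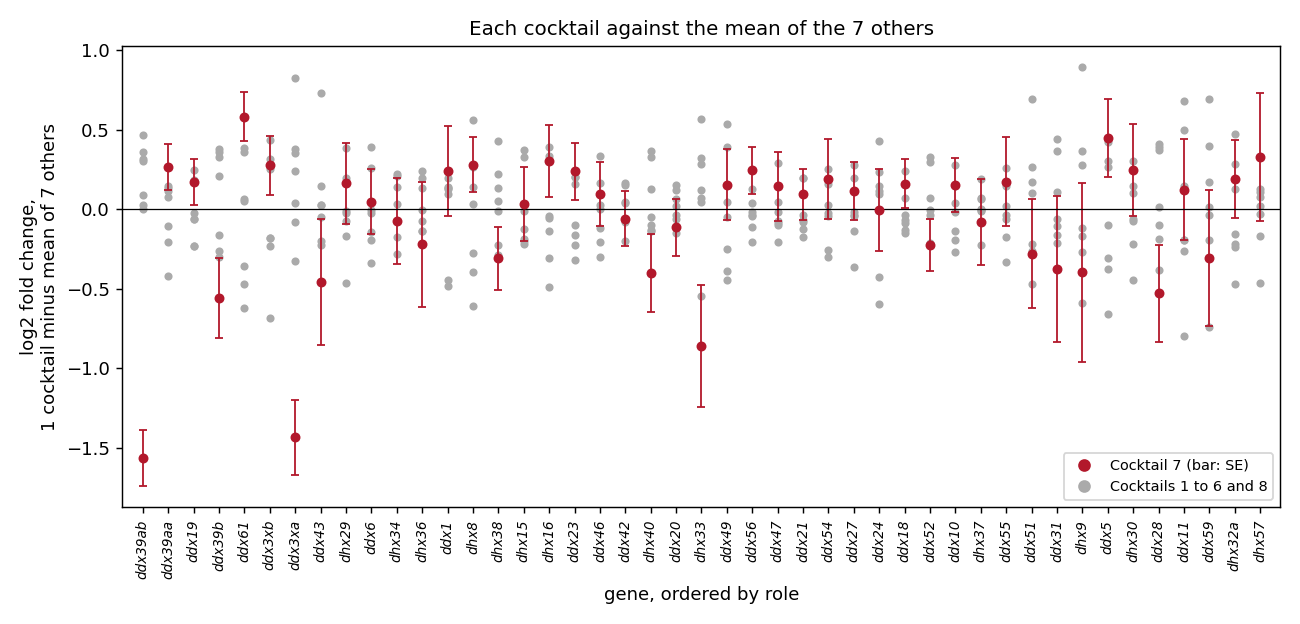
Log2 difference of each member between 1 cocktail and the mean of the 7 others, with Cocktail 7 in red (bars of 1 SE), the other cocktails in grey and members along the x axis by role. The called members are ddx39ab at -1.56 and ddx3xa at -1.44 in Cocktail 7.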

How the data were processed

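Total RNA of whole embryos was extracted with a spin-column kit and made into libraries with the Nextera XT kit, per the labels' protocols. Nextera XT libraries carry no strand information, so a gene and an antisense or overlapping partner cannot be told apart. The authors deposited whole-number counts per gene for each library, and TPM values, a unit inferred from the values. The submitters' processing notes name bcl2fastq 2.20 and danRer11. The aligner, the read counter and the gene annotation are not named in the sources used here.

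The 4 rows that name no gene (22.6% to 55.5% of reads) entered neither library sizes nor tests. Counts were scaled by TMM and tested with edgeR 4.0.16 (quasi-likelihood F test, robust, R 4.3.3), with 1 coefficient per group over all 18 libraries. Genes passing edgeR's filter at a minimum count of 10 (14514 of 32520) were tested, with Benjamini-Hochberg adjustment over all of them. The common biological coefficient of variation was 0.280. Standard errors are the log2 change divided by the square root of F. CPM values use TMM-scaled library sizes. Cocktails were compared with the control together and singly, and singly with the mean of the 7 others. Alternatives included DESeq2 1.42.0, edgeR with RLE size factors or with no filter, the replicate number as a block, limma 3.58.1 on log2(TPM + 1) and log2(TPM + 0.5) (genes reaching a TPM of 1 in 2 or more libraries), other fold minimums, only the groups compared, and each library left out. The fits were tested on simulated counts. On the log2(TPM + pseudocount) scale the change of low genes is understated.

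The members, role groups, partner and marker lists were chosen with earlier results of these data known. Named were ddx39ab, ddx3xa and their relatives, the 10 largest called decreases and increases, members called against other cocktails, the 2 largest called changes of each cocktail against the control, the 5 highest in control TPM, and the most counted member of each role group. Other members named were chosen after their values were seen. The files' ddx19 is placed with the nuclear pore helicases and is listed as ddx19b in RefSeq GRCz12tu. All 45 members were matched there by symbol or synonym, and 15 overlap another gene. No sequences or coordinates are given. Over all genes, replicates differed beyond sampling noise in every group (the lowest chi-square per degree of freedom was 3.58). Low members rest on few reads, such as dhx9 on 6 to 56 per cocktail library and dhx36 on 14 and 20 in the controls.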

Additional observations from a re-analysis of the deposited data

Results flagged for a closer look

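ddx39ab and ddx3xa in Cocktail 7 were singled out with earlier results of these data known, so the values here restate a known pattern. In the test of the difference itself, both genes separated Cocktail 7 from the other 7 cocktails. The log2 difference was -1.56 for ddx39ab and -1.44 for ddx3xa. Both pairs of Cocktail 7 libraries lay below all 14 libraries of the other cocktails. Leaving out single libraries kept ddx39ab between -1.71 and -1.43 and past the threshold each time, whereas ddx3xa was lost without either library of Cocktail 7. Which genes the gRNAs of Cocktail 7 match is not given in the sources used here, and the cause was not tested.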

How the results depend on the processing

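No single-gene result reversed its direction where it was called in the main fit or in the alternative. The count of 16 lower members became 8 on log2(TPM + 1), 7 on log2(TPM + 0.5) and 3 at 2-fold or more, and ranged from 7 to 20 when 1 library was left out. The 3 higher members ranged from 2 to 6. The 28 lower calls against the control became 12 on either TPM scale and 58 with no fold minimum, and ranged from 17 to 34; the 13 higher calls ranged from 8 to 20. Against the other cocktails the 2 lower calls ranged from 1 to 4 and the 0 higher calls from 0 to 1. ddx3xa in Cocktail 7 against the others ranged from -1.51 to -1.33. Calls over all genes moved with the setting too. Lower calls were 13.6% of all genes tested in the main fit, 6.09% on log2(TPM + 1) and 5.61% on log2(TPM + 0.5). They also moved when a library was left out. For the other fold minimums the shares over all genes are not given here. The shifts are therefore not read as a trait of the members. Their cause was not tested. A fit with 1 control has fewer samples, and fits without a library kept more genes. With the replicate block, 16 members were lower and 3 higher and no call changed. Same-numbered libraries showed no common deviation over all groups (correlations -0.124 to 0.125 over 36 pairs). With 2 libraries per group this cannot tell whether some groups shared a clutch or a batch. Of 51 single results, 46 of them called, DESeq2 left all 51 on their side of the threshold, RLE and no filter 50 each (dhx36 was lost in both), and limma 35 and 34. The median change of all genes was 0.15 on log2(TPM + 1), 0.10 without the filter and -0.04 with RLE, and 67.0%, 45.8% and 45.8% of calls were higher, against 52.6%. Depth limits members under 10 CPM, such as dhx9 in the cocktails and dhx36 and ddx1 in the control, to few reads per library.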
